A study of Mus musculus with 46 samples.

Results

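The collagen chains are the 43 genes, of 23329 symbols in the deposited count table, whose symbol has the form of Col, a type number, a and a chain number. Membership goes by the symbol and uses no measured value. They were followed in microglia (MG) and in bone marrow-derived macrophages (BMDM) sorted from the same mouse gliomas at 7 stages of treatment. The tumours were raised by injecting DF1 cells that carry RCAS-PDGFB-HA into the brains of nTVA Ink4a/Arf KO/KO mice at week 6 of age, and every group, vehicle included, shares that host and tumour. In this system DF1 cells, a chicken fibroblast line, release a virus that infects only cells bearing its receptor TVA, here under the nestin promoter. The sort took cells positive for CD45 and CD11b and negative for Ly6C and Ly6G, with MG negative and BMDM positive for CD49d. BLZ945 is an inhibitor of the CSF1 receptor, on which macrophages depend, and IR is ionizing radiation. There were 4 mice at BLZ945_5day, 2 at IR_5day, 3 at IR-BLZ945_5day, 2 at BLZ945_Recurrent, 4 at IR_Recurrent, 4 at IR-BLZ945_Recurrent and 4 given Vehicle, each mouse giving 1 MG and 1 BMDM library.

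Collagens are secreted as trimers of alpha chains wound into a triple helix. The fibrillar types (I, II, III, V, XI, XXIV and XXVII) assemble into fibrils, the fibril-associated types decorate them, type IV forms the network of basement membranes, type VI forms beaded filaments, and the multiplexins XV and XVIII sit at basement membranes. In brain most collagen is laid down by cells of the vessels and meninges, and macrophages are better known for taking up and degrading it. Type VI is an exception among them, since macrophages can make it.

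Total counts ran between 3007379 and 16993474 per library, and 9181 to 12885 genes had at least 10 counts. On this scale the floor of 3 counts equals 0.173 to 0.918 CPM (counts scaled to TMM-adjusted library size), so chains below about 1 CPM rest on few reads. The libraries carry no molecular identifiers, and all intervals and floors cover counting error only. All 8 microglia markers were higher in MG than in BMDM of Vehicle and 5-day mice, and 5 or 6 of 6 blood-derived macrophage markers were lower. At BLZ945_Recurrent, IR_Recurrent and IR-BLZ945_Recurrent only 0, 5 and 7 of 8 microglia markers were called higher in MG and 2, 4 and 5 of 6 blood-derived markers lower, and the microglia markers' median log2 differences were 1.20, 1.79 and 2.47, against 2.94 in Vehicle mice. The macrophage genes Ptprc and Csf1r were high in every library of both populations. Mouse 65698 (IR_5day) stood apart, because its MG library had 47.8 CPM of Xist and 0.0829 CPM of 4 Y-linked genes summed, whereas its BMDM library had 0 CPM of Xist and 455 CPM of the Y-linked genes. The 2 libraries labelled with that mouse's number thus differ in these genes, unlike those of the other 22 mice. Its libraries and 4 others with fewer than 11000 detected genes (BMDM 122 and 124, MG 65971 and 68344) are called the doubted libraries and were left out in one alternative. By the same genes sex was uneven between stages: Xist exceeded the Y-linked genes in 4 of 4 mice at BLZ945_5day, 0 of 2 at IR_5day (mouse 65698 as described), 2 of 3 at IR-BLZ945_5day, 1 of 2 at BLZ945_Recurrent, 0 of 4 at IR_Recurrent, 1 of 4 at IR-BLZ945_Recurrent and 3 of 4 given Vehicle, and its part in the results was not tested.

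All 43 chains had at least 1 count somewhere, but few were abundant. Col14a1 alone took 27.3% of all collagen counts (17047), followed by Col6a3 (6674), Col27a1 (5262), Col18a1 (5210), Col4a1 (4187), Col11a1 (3353), Col15a1 (2512), Col16a1 (2054), Col4a2 (2030) and Col3a1 (1782), while Col13a1 had 26. By class, the 9 fibril-associated chains held 36.9% of the counts, the 11 fibrillar chains 23.6%, the 2 multiplexins 12.4%, the 6 beaded-filament chains 12.3% and the 6 basement membrane chains 11.3%. The 4 transmembrane chains held 1.71%, the 3 short-chain network chains 1.09%, Col7a1 0.484% and Col28a1 0.134%. The filter on low counts kept 35 chains for tests in MG, 33 in BMDM and 40 in the fit over both. Col9a1, Col10a1 and Col13a1 were in no test.

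**Figure D1:**
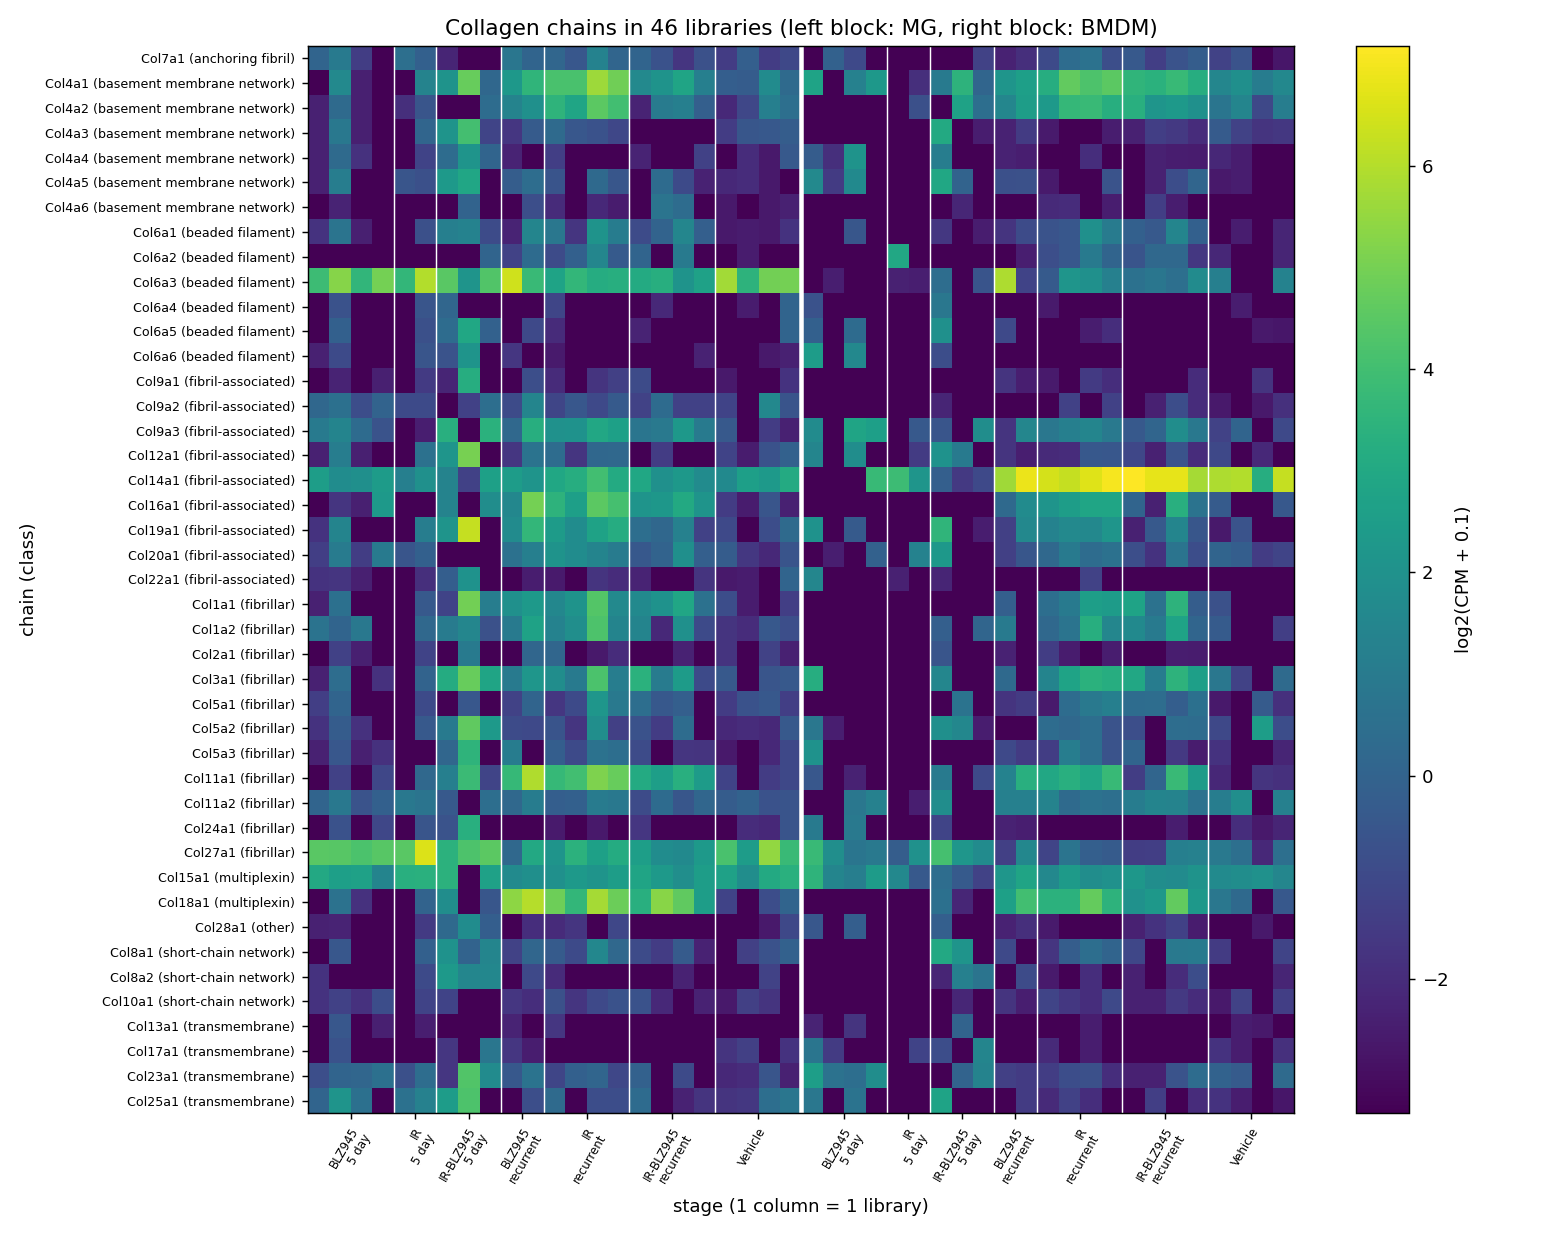
Level of each of the 43 collagen chains (rows, grouped by class) in each of the 46 libraries (columns), as log2(CPM + 0.1); MG libraries fill the left block and BMDM libraries the right block, with stages in the order named under the axis. Col14a1 is the brightest row in BMDM of Vehicle and recurrent mice except mouse 67668 (Col6a3), Col6a3 or Col27a1 in MG of Vehicle and 5-day mice except mouse 65971 (Col19a1), and Col18a1, Col11a1 and Col16a1 brighten in the recurrent columns.

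The sum of all chains was a small part of each library and varied within groups. In MG it ran 48.9 to 112 CPM at BLZ945_5day, 53.7 to 202 CPM at IR_5day, 105 to 384 CPM at IR-BLZ945_5day, 182 to 262 CPM at BLZ945_Recurrent, 123 to 323 CPM at IR_Recurrent, 47.7 to 106 CPM at IR-BLZ945_Recurrent and 32.4 to 107 CPM in Vehicle mice. In BMDM it ran 9.42 to 82.1 CPM, 13.4 to 26.2 CPM and 18.98 to 98.2 CPM at the corresponding 5-day stages, 142 to 181 CPM, 149 to 239 CPM and 110 to 233 CPM in the recurrent tumours, and 23.3 to 97.9 CPM in Vehicle mice. In BMDM each recurrent library thus lay above each Vehicle library, whereas in MG the IR-BLZ945_Recurrent and Vehicle ranges overlapped.

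Which chain led depended on the population. Per kilobase of exon, the mean level of Col6a3 led in Vehicle MG at 2.63 CPM per kb, ahead of Col27a1 at 1.57 and Col15a1 at 1.10. In Vehicle BMDM the mean level of Col14a1 led at 7.41 CPM per kb, and Col15a1 was next at 0.519. At recurrence the mean level of Col18a1 led in MG, at 7.64, 4.40 and 2.82 CPM per kb after BLZ945, IR and IR-BLZ945. That of Col14a1 led in BMDM, at 12.1, 14.2 and 15.0 CPM per kb. Single MG libraries varied: by counts Col6a3 led in mice 67668 and 68362, Col4a1 in 68344 and 68346, and Col3a1 in 67169.

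Sequences upstream of annotated start sites are shown for chains that carry the results below, so that they can be compared: Col6a3 and Col27a1, the chains higher in MG, and Col18a1, which rose in recurrent MG. Each is the 250 bases before a start site in RefSeq's table (GRCm38.p6), written 5′ to 3′ on the gene's own strand. A start in that table need not be the outermost one: the Col27a1 window lies inside the gene span given below, the Col6a3 window overlaps the end of its span, and Col18a1 has a second window at a start within the gene, which is not printed. Capitals mark GGGCGG (the GC box), CCAAT (the CCAAT box), TATAAA (the TATA box) and GAGGAA (a core bound by the macrophage factor PU.1), each searched on both strands with overlaps allowed.
Col6a3 at chr1:90843972-90844221 (minus strand): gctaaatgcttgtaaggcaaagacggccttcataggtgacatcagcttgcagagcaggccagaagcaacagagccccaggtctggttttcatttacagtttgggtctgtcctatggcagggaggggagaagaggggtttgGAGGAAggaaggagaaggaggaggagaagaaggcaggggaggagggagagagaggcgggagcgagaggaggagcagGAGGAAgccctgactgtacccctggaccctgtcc
Col27a1 at chr4:63215162-63215411 (plus strand): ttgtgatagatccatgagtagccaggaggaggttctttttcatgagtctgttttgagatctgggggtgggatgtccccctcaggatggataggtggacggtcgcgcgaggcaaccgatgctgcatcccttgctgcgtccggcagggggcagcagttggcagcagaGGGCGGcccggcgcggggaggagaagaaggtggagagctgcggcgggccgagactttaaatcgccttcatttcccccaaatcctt
Col18a1 at chr10:77166531-77166780 (minus strand, upstream start site): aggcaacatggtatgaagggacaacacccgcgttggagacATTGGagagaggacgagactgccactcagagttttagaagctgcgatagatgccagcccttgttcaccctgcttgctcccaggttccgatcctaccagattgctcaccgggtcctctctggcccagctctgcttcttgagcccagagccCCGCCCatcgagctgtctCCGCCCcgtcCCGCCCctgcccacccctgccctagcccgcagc
The Col6a3 window held the PU.1 core at 2 positions and none of the other motifs, the Col27a1 window held 1 GC box, and the printed Col18a1 window held the GC box at 3 positions and the CCAAT box at 1, all on the opposite strand, while the second Col18a1 window held none of the 4 motifs. Among all 32851 windows of that length, 32.7% held a GC box, 33.8% a CCAAT box, 12.4% a TATA box and 23.3% a PU.1 core. The table had 38 windows for 35 of the 43 chains, of which 22 held a GC box, 13 a CCAAT box, 5 a TATA box and 10 a PU.1 core. These matches describe letters only.

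Between the populations of untreated tumours, 3 of 40 chains differed: Col27a1 and Col6a3 were higher in MG, and Col14a1 was lower in MG than in BMDM. Over all 15901 genes 3.84% were called higher and 5.3% lower in that comparison. The chains' median log2 difference was 0.87, and that of all genes is set near 0 by the scaling. Col6a3 (chr1:90766860-90844001) encodes the large alpha-3 chain of type VI collagen. Its levels were 52.4, 10.8, 30.9 and 31.9 CPM in Vehicle MG and 2.23, 0, 0 and 2.42 CPM in Vehicle BMDM. Every MG library exceeded every BMDM library, by 4.73 ± 1.04 on the log2 scale (SE; 26.5-fold; adjusted p = 0.00169, edgeR's quasi-likelihood test with Benjamini-Hochberg adjustment, as for all adjusted p-values here), and by 5.36 without mouse 78.

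Col27a1 (chr4:63214009-63334991) encodes a fibrillar chain best known from cartilage. It had 17.98, 5.42, 44.4 and 13.8 CPM in Vehicle MG, against 1.78, 1.34, 0.130 and 1.32 CPM in Vehicle BMDM. The groups did not overlap, and the difference was 4.15 ± 0.87 on the log2 scale (17.7-fold; adjusted p = 0.001), or 3.06 without mouse 65967. Col14a1 (chr15:55307644-55520803) encodes a fibril-associated chain that regulates fibril diameter. It had 3.10, 6.02, 5.08 and 8.39 CPM in Vehicle MG and 58.8, 63.2, 9.11 and 76.9 CPM in Vehicle BMDM. BMDM of mouse 65967 lay low but still above all 4 MG libraries. The log2 difference, MG minus BMDM, was -3.20 ± 0.88 (adjusted p = 0.0132, and 0.0258 with mouse as a replicate block). This call needed all mice: the adjusted p was 0.0984 without mouse 41, 0.0658 without 65966 and 0.0614 without 78.

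**Figure D2:**
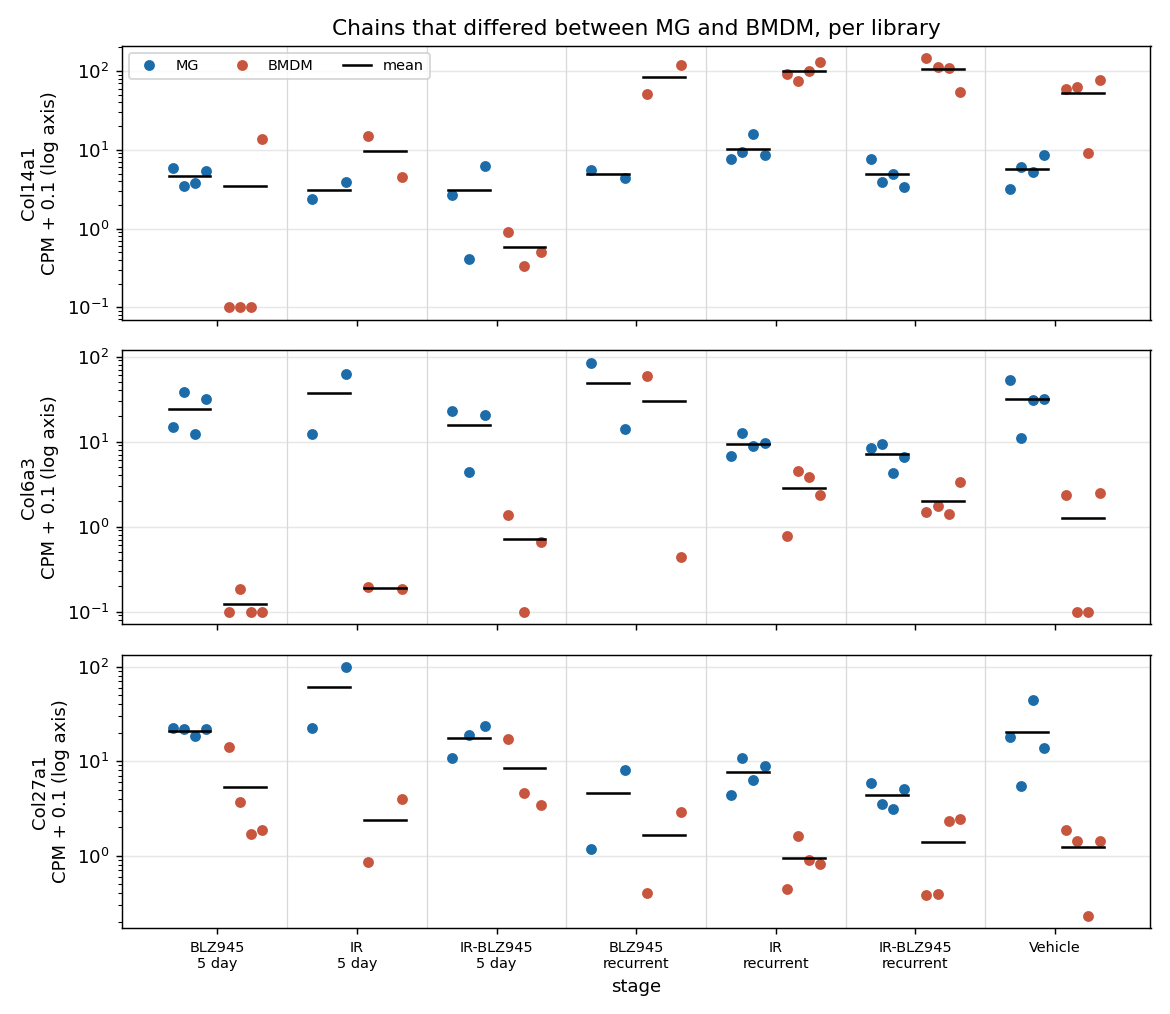
CPM + 0.1 of Col14a1, Col6a3 and Col27a1 (log axis) in every library by stage, MG in blue left of BMDM in red, with group means as black lines. Col14a1 is lower in MG than in BMDM at Vehicle and at all 3 recurrent stages, where recurrent BMDM lie at 51.6 CPM or more, but not at the BLZ945_5day and IR-BLZ945_5day stages, where BMDM hold at most 13.5 CPM. The difference was not called at BLZ945_Recurrent.

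Col14a1 had the most counts of any chain in every BMDM library of Vehicle and recurrent mice except mouse 67668 (BLZ945_Recurrent), where Col6a3 did, and it was low in BMDM at the 5-day stages that included BLZ945. In BMDM its levels were 0, 0, 0 and 13.5 CPM at BLZ945_5day, 14.7 and 4.42 CPM at IR_5day, 0.802, 0.232 and 0.402 CPM at IR-BLZ945_5day, 51.6 and 118 CPM at BLZ945_Recurrent, 90.6, 75.9, 100.3 and 131 CPM at IR_Recurrent, and 145, 112, 109 and 53.8 CPM at IR-BLZ945_Recurrent. The Vehicle BMDM values were the 58.8, 63.2, 9.11 and 76.9 CPM given above. At IR-BLZ945_5day all 3 libraries lay below all Vehicle libraries, and at BLZ945_5day all but mouse 65975 did. Relative to Vehicle, Col14a1 fell in BMDM at IR-BLZ945_5day (log2 -6.69 ± 1.51, adjusted p = 0.043) and at BLZ945_5day (log2 -3.87 ± 1.09, adjusted p = 0.0413). Without mouse 65975 no BLZ945_5day library held a count of it (adjusted p = 8.34e-06), and without 122, 123, 124, 41, 65966 or 78 its adjusted p was 0.0726, 0.057, 0.0653, 0.0722, 0.0761 and 0.0774. The IR-BLZ945_5day call was lost in 6 of 7 fits that left out a mouse, with adjusted p between 0.0373 and 0.165. Without the filter on low counts neither passed (0.0947 at BLZ945_5day, 0.105 at IR-BLZ945_5day), and without the doubted libraries the BLZ945_5day adjusted p was 0.143.

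In recurrent BMDM the log2 difference of Col14a1 from Vehicle was 0.75 ± 1.15 at BLZ945_Recurrent, 0.97 ± 0.97 at IR_Recurrent and 1.07 ± 0.97 at IR-BLZ945_Recurrent (adjusted p 0.93, 0.725 and 0.77). At IR_5day it was -2.41 ± 1.34 (adjusted p = 0.362). None of these passed the test. In MG Col14a1 kept to 0.306 to 15.9 CPM over all 23 libraries and was called against Vehicle at none of the 6 stages, with log2 differences between -0.88 and 0.98.

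MG and BMDM at one stage were then compared for Col14a1. At IR-BLZ945_Recurrent MG had 7.53, 3.78, 4.78 and 3.25 CPM and BMDM 145, 112, 109 and 53.8 CPM, a log2 difference of -4.44 ± 0.93 (adjusted p = 0.00197) that held with any mouse left out. At IR_Recurrent MG had 7.57, 9.15, 15.9 and 8.46 CPM and BMDM 90.6, 75.9, 100.3 and 131 CPM, a log2 difference of -3.27 ± 0.88 (adjusted p = 0.0369) that was lost without any 1 of the 4 mice and without the low-count filter (0.0693). At both stages the populations were fully apart. The test of whether the 5-day response differed between populations gave a log2 difference of responses (MG minus BMDM) of 5.95 ± 1.45 at IR-BLZ945_5day (adjusted p = 0.0535) and 3.59 ± 1.19 at BLZ945_5day (adjusted p = 0.119), so neither passed. Fewer Col14a1-bearing cells in the BMDM gate and less Col14a1 RNA per cell cannot be told apart in bulk libraries.

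The BMDM of BLZ945_5day mice differed in more than Col14a1. There 3 of 33 chains fell and none rose, where 1.95% of all genes were called higher and 3.56% lower. The chains' median log2 difference was 0.45, or 0.58 with the 9 chains that had a group at 0 set to their bounds, against -0.06 for all genes. Col4a2, the second chain of the main basement membrane collagen, had no count in any of the 4 BLZ945_5day libraries, against 1.59, 2.68, 0.390 and 2.07 CPM in Vehicle BMDM. It was at least 25.03-fold lower, taking the floor of 3 counts over the group (adjusted p = 0.0141), in every fit with a mouse left out, but its adjusted p was 0.0583 without the doubted libraries. Its partner Col4a1 had 6.71, 0, 2.37 and 4.78 CPM in the same BLZ945_5day libraries, from 64, 0, 24 and 67 counts, against 2.73, 3.63, 2.02 and 2.88 CPM in Vehicle BMDM. Thus 3 libraries with 24 or more Col4a1 counts held no Col4a2 count. This was not limited to that group: at IR-BLZ945_5day MG of mice 65971 and 65696 had 88 and 37 Col4a1 counts and BMDM of 65696 had 16, all with no Col4a2 count, and at IR-BLZ945_Recurrent MG of 67169 had 28 and 1.

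The genes for Col4a1 (chr8:11198423-11312889) and Col4a2 (chr8:11312805-11449287) lie head to head, and their products join in one trimer. Over the 27 libraries with at least 10 counts of both, the per-kilobase ratio of Col4a1 to Col4a2 had a median of 1.62 and a range of 0.665 to 2.75, a range that by construction leaves out the libraries just named. The 2 annotated spans overlap at their starts, and whether the counting used strand is not given in the sources used here. For comparison, the ratio per kilobase of Col1a1 to Col1a2, the chains of type I collagen, had a median of 2.24 and ran 1.15 to 4.13 over 16 libraries. Col18a1 also had no count in BLZ945_5day BMDM, against 1.72, 1.10, 0 and 0.633 CPM in Vehicle BMDM, and was at least 12.9-fold lower (adjusted p = 0.0421). That call was lost in 7 of 8 fits without a mouse. The count of called chains was 1 without mouse 122, 123, 124, 41, 65966 or 78, 0 without the doubted libraries and 5 by DESeq2.

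Some genes that act on collagen also moved in BLZ945_5day BMDM, in lists of 28 modifying, 11 receptor and 9 degrading genes. Of all genes 1.95% were called higher and 3.56% lower there. Of 25 tested genes of collagen modification and assembly, 3 fell and 0 rose: Bmp1, the C-propeptidase, was at least 30.7-fold lower (adjusted p = 0.00164), Serpinh1, the collagen chaperone HSP47, at least 32.0-fold lower (adjusted p = 0.0279), and P4ha1, a prolyl hydroxylase subunit, fell by 1.12 ± 0.24 on the log2 scale (adjusted p = 0.00913). Of 8 receptors only Lair1, an inhibitory collagen receptor of leukocytes, fell (log2 -1.60 ± 0.25, adjusted p = 0.00118). Of 9 degrading genes 3 fell and 0 rose. Mmp2, a gelatinase, fell by 4.63 ± 0.68 on the log2 scale (adjusted p = 0.000819), and Ctsk, a collagen-cleaving cathepsin, was at least 95.4-fold lower (adjusted p = 0.0363). Mmp13, a collagenase, had 2 counts in BLZ945_5day BMDM against 396 in Vehicle BMDM, a CPM ratio of 0.00679 (95% interval for counting error 0.00082 to 0.0247; adjusted p = 0.0157). The 5 macrophage defining markers summed to 2186 to 3579 CPM in these BMDM, against 5008 to 6016 CPM in Vehicle BMDM. Of these 1 was called lower, as were 6 of 8 microglia and 5 of 9 border-associated macrophage markers. The 6 blood-derived macrophage markers summed higher, to 1504 to 2419 CPM against 766 to 1454 CPM. In that list 1 was called higher and 0 lower, with a median log2 difference of -0.03. Of other lists, 3 of 12 glioma and oligodendrocyte precursor markers fell and 1 of 6 myelin markers rose. Their part in the result was not tested.

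Relative to Vehicle, 0 of 33 chains were called in BMDM at IR_5day (1.07% of all genes; 6 chains at an unadjusted p under 0.05 in edgeR, 4 called by DESeq2), where 15 chains had a group at 0 and the median log2 difference was -3.14, or -0.67 with those at their bounds, against -0.16 for all genes. Leaving out mouse 65972 gave 1 call. At IR-BLZ945_5day Col14a1 was the only call of 33 (0.336% of all genes called higher, 0.233% lower), with a chain median of 0.98 (0.92 with bounds).

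In MG at 5 days of a single treatment no chain was called. At BLZ945_5day edgeR called 0 of 35 chains (0.303% of all genes; 1 at an unadjusted p under 0.05, 0 by DESeq2), and at IR_5day 0 of 35 (1.99% of all genes; 1 unadjusted, 0 by DESeq2, 1 in edgeR without mouse 65967). Col6a3 had 14.8, 38.3, 12.1 and 31.9 CPM at BLZ945_5day and 12.3 and 62.7 CPM at IR_5day, within or near the Vehicle range of 10.8 to 52.4 CPM. Col27a1 had 22.2, 21.6, 18.4 and 21.6 CPM at BLZ945_5day, 22.5 and 98.9 CPM at IR_5day, and 5.42 to 44.4 CPM in Vehicle MG. Per kilobase both led the MG chains under either treatment, with mean levels of 2.03 and 3.14 CPM per kb for Col6a3 and 1.61 and 4.66 CPM per kb for Col27a1.

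At the 5-day stages Col6a3 was high in MG and near 0 in BMDM. At BLZ945_5day MG held 1005 counts and BMDM 1, a ratio of CPM of 1085 (95% interval for counting error 194 to 42882; adjusted p = 5.43e-06). At IR_5day the counts were 911 and 2, a ratio of 422 (117 to 3492; adjusted p = 0.00245), and at IR-BLZ945_5day MG had 22.6, 4.28 and 20.3 CPM and BMDM 1.26, 0 and 0.563 CPM (log2 4.68 ± 1.24, adjusted p = 0.00969). The 2 populations did not overlap at any of these stages, and the IR-BLZ945_5day call was lost without mouse 67537 (0.0643). Col27a1 at IR_5day was also higher in MG than in BMDM, which had 0.766 and 3.83 CPM (log2 4.71 ± 1.25, adjusted p = 0.012). Both IR_5day calls, and that of Col7a1 (at least 8.03-fold higher in MG, adjusted p = 0.0498), were lost without either of the 2 mice, and Col7a1 also with mouse as a replicate block (0.0644).

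At BLZ945_5day 6 of 40 chains were higher in MG than in BMDM and 0 lower, where 11.6% of all genes were called higher and 10.3% lower. Beside Col6a3 these were Col9a2, Col16a1, Col1a2, Col4a3 and Col4a2, all with 0 counts in BMDM and at least 14.03-, 20.9-, 15.8-, 6.84- and 4.68-fold higher in MG. MG of mouse 65975 alone carried Col16a1 at 5.06 CPM, with 0 to 0.208 CPM in the other 3, and without that mouse its adjusted p was 0.304. The Col4a2 call was lost without any 1 mouse and that of Col4a3 without mouse 123 (0.325), and with mouse as a replicate block both were lost (0.101 for Col4a2 and 0.102 for Col4a3). Without the doubted libraries the adjusted p was 0.052 for Col16a1, 0.0561 for Col1a2, 0.0887 for Col4a3 and 0.147 for Col4a2. IR_5day gave 3 of 40 chains higher and 0 lower (4.96% and 4.13% of all genes), and IR-BLZ945_5day gave 5 higher and 1 lower (5.68% and 7.11% of all genes), 3 without mouse 65971 and 2 without 67537. In the last of these Col15a1, a multiplexin, was higher in MG, with 10.7, 0 and 6.27 CPM, than in BMDM, with 1.26, 0.695 and 0.322 CPM (log2 2.93 ± 0.80, adjusted p = 0.0118). That call was lost with mouse as a block (0.142), without 65696 (0.0543) and without 67537 (0.0896). Col1a1, Col16a1 and Col5a3 had no count in these BMDM and were at least 52.6-, 26.1- and 19.05-fold higher in MG, and Col20a1 had none in MG and was at least 11.3-fold lower there. All 42 Col20a1 counts of these BMDM were in mouse 65696, without which neither population had any. Without 65971 the Col1a1 call was lost (0.146), without 67537 that of Col20a1, and without any 1 of the 3 mice those of Col16a1 and Col5a3. With mouse as a replicate block Col5a3 was lost too (0.0774), and without the doubted libraries Col1a1 (0.0503) and Col5a3 (0.0839) were.

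Type VI needs 3 chains, and the libraries held them unevenly. In MG Col6a3 summed to 5750 counts, Col6a1 to 258 and Col6a2 to 119. Per kilobase their median levels were 1.04, 0.0981 and 0 CPM per kb, and Col6a3 was the highest of them in 20 of 23 MG libraries. In BMDM the sums were 924, 168 and 170 counts, and Col6a3 led in 9 of 23 libraries. Single libraries weighed on these sums: mouse 67668 gave 588 of the Col6a3 counts and the doubted library of mouse 65698 gave 80 of the Col6a2 counts. One BMDM library, mouse 67668 of BLZ945_Recurrent, held 58.7 CPM of Col6a3, against 0 to 4.36 CPM in the other 22.

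In MG of recurrent tumours the chains Col18a1, Col11a1 and Col16a1, each below 1 CPM in every Vehicle library, rose at all 3 recurrent stages. Relative to Vehicle, 4 of 35 chains rose and 0 fell at BLZ945_Recurrent (2.97% and 0.557% of all genes), 9 rose and 0 fell at IR_Recurrent (4.2% and 0.138%), and 3 rose and 2 fell at IR-BLZ945_Recurrent (2.04% and 2.78%). The chains' median log2 differences were 1.71, 1.73 and 0.37, against 0.00, 0.00 and -0.02 for all genes. The 3 comparisons share their Vehicle libraries.

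Col18a1 (chr10:77052178-77166530) encodes the basement membrane collagen whose C-terminal fragment is endostatin. In MG it had 42.2 and 65.0 CPM at BLZ945_Recurrent, 28.9, 12.5, 53.9 and 28.3 CPM at IR_Recurrent, 9.86, 39.2, 24.7 and 5.59 CPM at IR-BLZ945_Recurrent, and 0.329, 0, 0.456 and 0.953 CPM in Vehicle mice. Every recurrent library stood above every Vehicle library. The log2 rises were 7.05 ± 1.20 (132-fold; adjusted p = 0.0031), 6.30 ± 1.12 (78.6-fold; adjusted p = 0.00249) and 5.52 ± 1.09 (46.04-fold; adjusted p = 0.0109). Only the last was lost without a mouse (0.052 without 65967), and it was 6.11 without mouse 78. The 9 MG libraries of the 5-day stages held at most 3.41 CPM.

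Col11a1 (chr3:114030479-114220756) encodes a fibrillar chain that nucleates thin fibrils. It had 12.9 and 60.3 CPM at BLZ945_Recurrent, 13.003, 15.8, 35.0 and 26.3 CPM at IR_Recurrent, 8.59, 5.86, 9.65 and 5.38 CPM at IR-BLZ945_Recurrent, and 0.329, 0, 0.261 and 0.381 CPM in Vehicle MG. Again no recurrent library overlapped Vehicle. Its log2 rises were 7.29 ± 1.17 (157-fold; adjusted p = 0.00285), 6.61 ± 1.10 (98.0-fold; adjusted p = 0.00182) and 4.87 ± 1.05 (29.3-fold; adjusted p = 0.0147). The first was 5.69 without mouse 70696 and 8.03 without 67668, both still called. The adjusted p of the last was 0.0565 without mouse 67947 and 0.0659 without 65967. A rise of Col11a1 in MG was not limited to recurrence. At IR-BLZ945_5day its mean was 5.54 CPM, and it was called higher than in Vehicle with an overlap (log2 4.51 ± 1.10, adjusted p = 0.0147). That call was lost without mouse 65971, 41 or 65966 (adjusted p up to 0.151).

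Col16a1 (chr4:130047817-130099277), a fibril-associated chain, had 2.81 and 31.3 CPM at BLZ945_Recurrent, 11.1, 6.03, 22.8 and 16.7 CPM at IR_Recurrent, 4.24, 4.56, 8.23 and 4.27 CPM at IR-BLZ945_Recurrent, and 0.263, 0.0743, 0.586 and 0.0953 CPM in Vehicle MG. The groups did not overlap. Its log2 rises were 6.07 ± 1.33, 5.82 ± 1.26 and 4.27 ± 1.20 (adjusted p 0.0146, 0.00947 and 0.0443). These were less stable than those of Col18a1 and Col11a1: the first was lost without mouse 70696 (log2 3.37, adjusted p = 0.332), 41 (0.0679) or 65966 (0.0537), the second without 41 (0.0523), and the third without any 1 of 8 mice (0.0625 to 0.112) and without the low-count filter (0.0648).

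**Figure D3:**
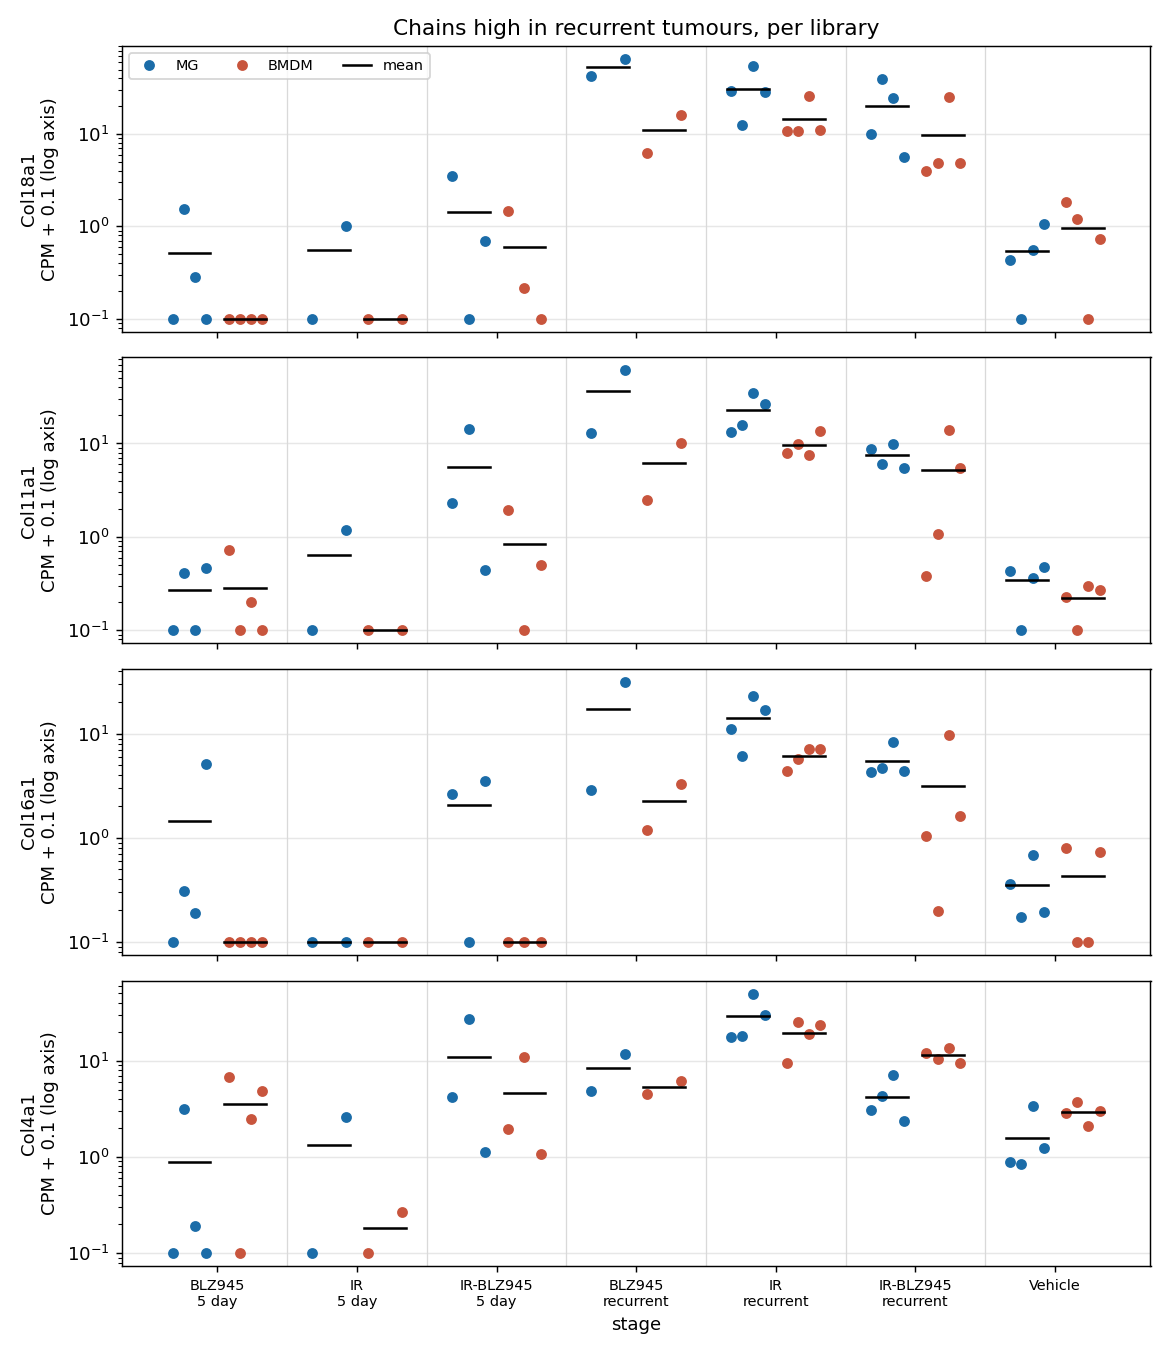
CPM + 0.1 (log axis) of Col18a1, Col11a1, Col16a1 and Col4a1 in every library by stage. MG is in blue left of BMDM in red, with group means as black lines. These chains were called higher in recurrent MG, Col4a1 at IR_Recurrent alone, and the other chains called there are not drawn. Col18a1 in MG lies between 5.59 and 65.0 CPM in the 10 recurrent libraries and at or below 0.953 CPM in the 4 Vehicle libraries.

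The other calls belonged mostly to IR_Recurrent. Col9a3, a chain of the fibril-associated type IX, had 1.08 and 9.48 CPM in MG at BLZ945_Recurrent, 3.93, 3.95, 7.88 and 6.19 CPM at IR_Recurrent and 0.659, 0, 0.261 and 0.0953 CPM in Vehicle MG. It rose by 4.39 ± 1.11 on the log2 scale after BLZ945 (adjusted p = 0.0294) and by 4.46 ± 1.03 after IR (adjusted p = 0.0134), with no overlap. Without mouse 41 the rise after IR was 5.40. The BLZ945 call was lost without mouse 70696 (log2 2.01, adjusted p = 0.577), 65966 (0.0843), 65967 (0.0868) or 78 (0.0719), and the number of chains called there was 2 without 70696 or 65966.

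In IR_Recurrent MG the basement membrane chain Col4a1 had 17.6, 17.9, 49.4 and 29.7 CPM, against 0.790, 0.743, 3.26 and 1.14 CPM in Vehicle MG, and Col4a2 had 11.2, 7.07, 23.2 and 15.8 CPM, against 0.132, 0.371, 2.22 and 1.33 CPM. Both groups were apart, and the log2 rises were 4.39 ± 1.17 (adjusted p = 0.0323) and 3.95 ± 1.05 (adjusted p = 0.0319). The type I chains rose too. Col1a1 had 2.79, 4.16, 20.4 and 3.02 CPM, against 0.461, 0.0743, 0 and 0.286 CPM in Vehicle MG (log2 5.28 ± 1.41, adjusted p = 0.0325), and Col1a2 had 2.43, 3.53, 18.8 and 2.57 CPM, against 0.198, 0.149, 0.651 and 0.477 CPM (log2 4.32 ± 1.19, adjusted p = 0.0389). Mouse 68345 was the high library for all 4, and without it the log2 rises of Col1a1 and Col1a2 were 4.03 and 3.01. Without the Vehicle mouse 65967 those of Col4a1 and Col4a2 were 5.10 and 4.68. Col20a1, a fibril-associated chain, had 4.07, 3.33, 2.56 and 1.96 CPM, against 0.724, 0.223, 0.130 and 0.572 CPM (log2 2.92 ± 0.83, adjusted p = 0.0496), and was lost without any 1 of 8 mice. Without a mouse the largest adjusted p was 0.136 for Col4a1, 0.14 for Col4a2, 0.17 for Col1a1, 0.276 for Col1a2 and 0.0617 for Col9a3, and without the low-count filter it was 0.0587 for Col4a1 and 0.0787 for Col20a1. The count of 9 was 3 without mouse 41, 65966 or 78, 4 without 65967 or 68345 and 5 without 68346.

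Both MG-high chains were lower in recurrence after IR-BLZ945. Col6a3 had 8.37, 9.37, 4.17 and 6.40 CPM, below all Vehicle values of 52.4, 10.8, 30.9 and 31.9 CPM, and fell by 2.16 ± 0.61 on the log2 scale (adjusted p = 0.0441). Col27a1 had 5.83, 3.38, 3.05 and 4.98 CPM, against 17.98, 5.42, 44.4 and 13.8 CPM in Vehicle MG, with an overlap, and fell by 2.22 ± 0.59 (adjusted p = 0.0361). Each call was lost in 6 of 8 fits without a mouse (0.046 to 0.129 for Col6a3, 0.0254 to 0.192 for Col27a1, whose log2 difference was -1.54 without 65967), and that of Col6a3 with DESeq2's size factors in edgeR (0.0576). At IR_Recurrent the log2 differences were -1.64 ± 0.60 for Col6a3 (6.72 to 12.5 CPM; adjusted p = 0.16) and -1.33 ± 0.57 for Col27a1 (4.29 to 10.8 CPM; adjusted p = 0.296). At BLZ945_Recurrent Col6a3 had 84.6 and 13.8 CPM and Col27a1 1.08 and 7.91 CPM, and neither was called. The count of called chains at IR-BLZ945_Recurrent was 0 without mouse 65967, 1 without 67947, 2 without 67169, 67543, 68362 or 41, and 10 both by DESeq2 and without the doubted libraries.

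**Figure D4:**
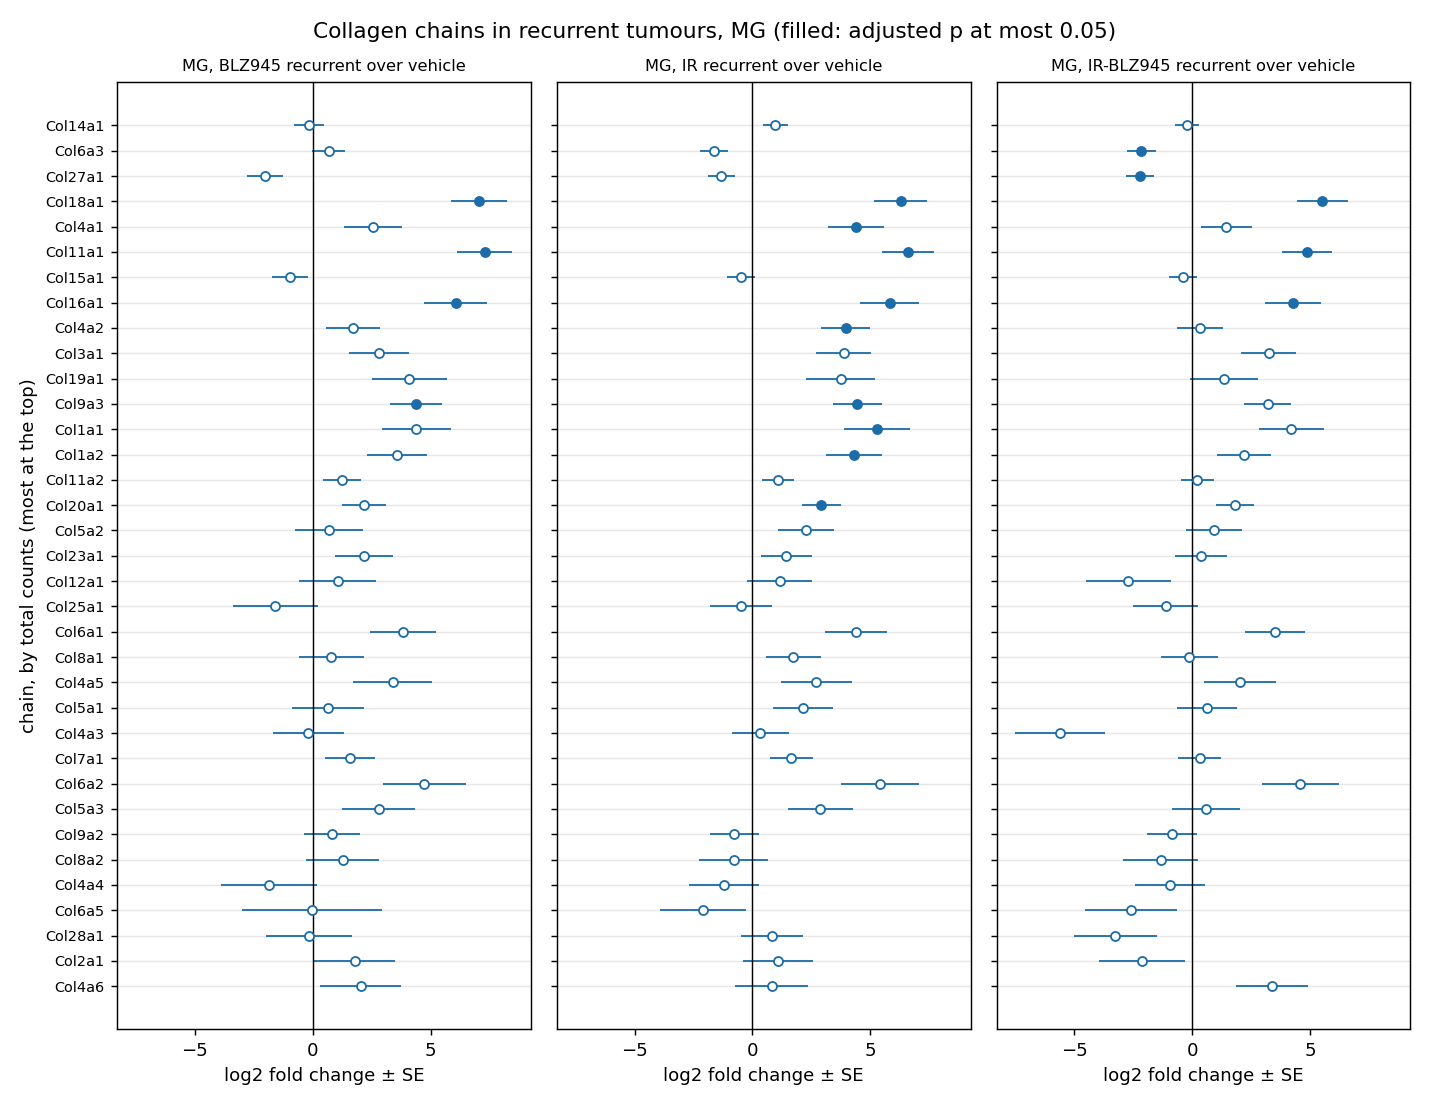
Log2 fold change over Vehicle (± SE, edgeR) of the 35 chains tested in MG at the 3 recurrent stages, ordered by total counts, with filled points where the adjusted p was at most 0.05. Col18a1, Col11a1 and Col16a1 are filled and to the right of 0 in all 3 panels, and Col6a3 and Col27a1 are filled to the left of 0 in the IR-BLZ945 panel alone.

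In recurrent BMDM Col11a1, Col18a1, Col4a1 and Col4a2 had higher values than in Vehicle BMDM, but only Col11a1, at IR_Recurrent, passed the test. Col4a1 had 4.40 and 6.00 CPM at BLZ945_Recurrent, 9.31 to 24.9 CPM at IR_Recurrent and 9.31 to 13.4 CPM at IR-BLZ945_Recurrent. Its Vehicle BMDM range was 2.02 to 3.63 CPM. Col4a2 had 2.70 and 5.67 CPM, 5.09 to 13.7 CPM and 3.78 to 9.72 CPM at these stages, against 0.390 to 2.68 CPM in Vehicle BMDM. Col11a1 in BMDM had 7.88, 9.80, 7.34 and 13.4 CPM at IR_Recurrent, against 0.127, 0, 0.195 and 0.173 CPM in Vehicle BMDM, and was the only chain of 33 called there (log2 6.16 ± 1.48, adjusted p = 0.036; 0.844% of all genes called higher and 1.02% lower). That call was lost without any 1 of 8 mice (0.0651 to 0.114), while 4 chains were called without the doubted libraries and 6 by DESeq2. The blood-derived macrophage markers summed to 336 to 468 CPM in these BMDM, against 766 to 1454 CPM in Vehicle BMDM, with 3 of 6 called lower, and 1 of 9 border-associated macrophage markers fell. Of other lists, 3 of 12 glioma and oligodendrocyte precursor, 1 of 12 endothelial and 1 of 6 choroid plexus markers rose (list medians 4.37, 2.13 and 4.49). Endothelial sums overlapped, at 40.4 to 49.1 CPM against 21.5 to 56.8 CPM in Vehicle BMDM. Choroid plexus sums were 14.5 to 38.3 CPM against 0.0651 to 0.748 CPM. Their part in the result was not tested. At BLZ945_Recurrent and IR-BLZ945_Recurrent the log2 differences of Col11a1 in BMDM were 5.53 ± 1.53 and 5.26 ± 1.43 (adjusted p 0.315 and 0.188). There edgeR called 0 of 33 chains at either stage (0 and 0.0275% of all genes), with 4 and 8 chains at an unadjusted p under 0.05 and 1 each by DESeq2. Col18a1 in BMDM had 6.09 and 16.1 CPM at BLZ945_Recurrent, 10.6, 10.7, 25.98 and 10.99 CPM at IR_Recurrent, 3.83, 4.80, 24.8 and 4.77 CPM at IR-BLZ945_Recurrent, and 1.72, 1.10, 0 and 0.633 CPM in Vehicle BMDM. The groups did not overlap, yet the log2 differences of 3.71 ± 1.27, 4.10 ± 1.19 and 3.50 ± 1.16 had adjusted p of 0.415, 0.0854 and 0.284. The chains' medians in the 3 recurrent BMDM groups were 0.78, 1.89 and 1.81 (0.84, 2.33 and 1.97 with bounds).

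Whether the recurrence rise differed between the populations was tested directly, and no chain passed. For Col18a1 the log2 response of MG minus that of BMDM was 3.28 ± 1.82, 2.09 ± 1.49 and 2.06 ± 1.50 after BLZ945, IR and IR-BLZ945, and for Col11a1 it was 1.71, 0.37 and -0.34 (all adjusted p = 1). Over all 6 stages edgeR called 0 of 40 chains for such a difference (1.65, 0.0755, 0.358, 0, 0.0189 and 0% of all genes, in the order of stages used above), with 10, 6, 10, 2, 1 and 4 chains at an unadjusted p under 0.05 and 1, 1, 2, 0, 0 and 0 by DESeq2. Between recurrent MG and BMDM themselves, edgeR called 0 of 40 chains at BLZ945_Recurrent (0.0818% of all genes; 2 unadjusted, 0 by DESeq2), 1 higher and 1 lower at IR_Recurrent (0.547% and 1.36% of all genes), Col27a1 and Col14a1, and Col14a1 alone, lower, at IR-BLZ945_Recurrent (1.64% higher and 2.77% lower). Col27a1 had 4.29, 10.8, 6.24 and 8.68 CPM in MG and 0.340, 1.53, 0.807 and 0.707 CPM in BMDM at IR_Recurrent (log2 3.13 ± 0.85, adjusted p = 0.0397), a call lost without any 1 of the 4 mice.

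The 12 glioma and oligodendrocyte precursor markers also summed higher in recurrent libraries. In MG they summed to 520 to 1019 CPM at BLZ945_Recurrent, 448 to 957 CPM at IR_Recurrent and 118 to 477 CPM at IR-BLZ945_Recurrent. The Vehicle MG sums were 61.4 to 105 CPM. In MG 9, 10 and 7 of the markers rose, where 2.97%, 4.2% and 2.04% of all genes were called higher. In BMDM the sums were 181 to 199.9 CPM, 173 to 397 CPM and 52.6 to 307 CPM, against 7.76 to 18.7 CPM in Vehicle BMDM, with 0, 3 and 0 called. Pdgfra, their defining gene, stood at 49.2 to 254 CPM, 73.3 to 210 CPM and 16.9 to 73.1 CPM in the recurrent MG groups and at 0 to 9.71 CPM in Vehicle MG. Their part in the result was not tested.

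Markers of vessel and connective tissue cells gave 1 call in recurrent MG, while the median log2 differences of these lists were positive. The fibroblast markers summed to 2.05 to 8.85 CPM, 1.66 to 11.5 CPM and 2.34 to 9.75 CPM in recurrent MG and 0.790 to 1.62 CPM in Vehicle MG, with 0 of 6 called at each stage. Endothelial markers summed to 69.7 to 83.3 CPM, 59.9 to 90.0 CPM and 22.7 to 40.8 CPM, against 24.8 to 58.0 CPM in Vehicle MG, with 1, 0 and 0 of 12 called. Mural cell markers summed to 11.3 to 31.7 CPM, 13.7 to 25.7 CPM and 9.14 to 18.9 CPM, against 12.9 to 21.1 CPM, with none of 8 called. Neuron markers had 2 of 7 higher at each recurrent stage, myelin markers 2, 1 and 2 of 7, and astrocyte markers 1, 2 and 1 of 8, with 1 astrocyte marker lower at IR_Recurrent. Choroid plexus markers summed to 12.9 to 31.7 CPM, 15.4 to 58.7 CPM and 6.89 to 29.7 CPM, against 1.19 to 5.93 CPM in Vehicle MG, with 1, 1 and 0 of 8 higher, and 4, 2 and 0 of 8 microglia markers fell. Their part in the result was not tested.

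**Figure D5:**
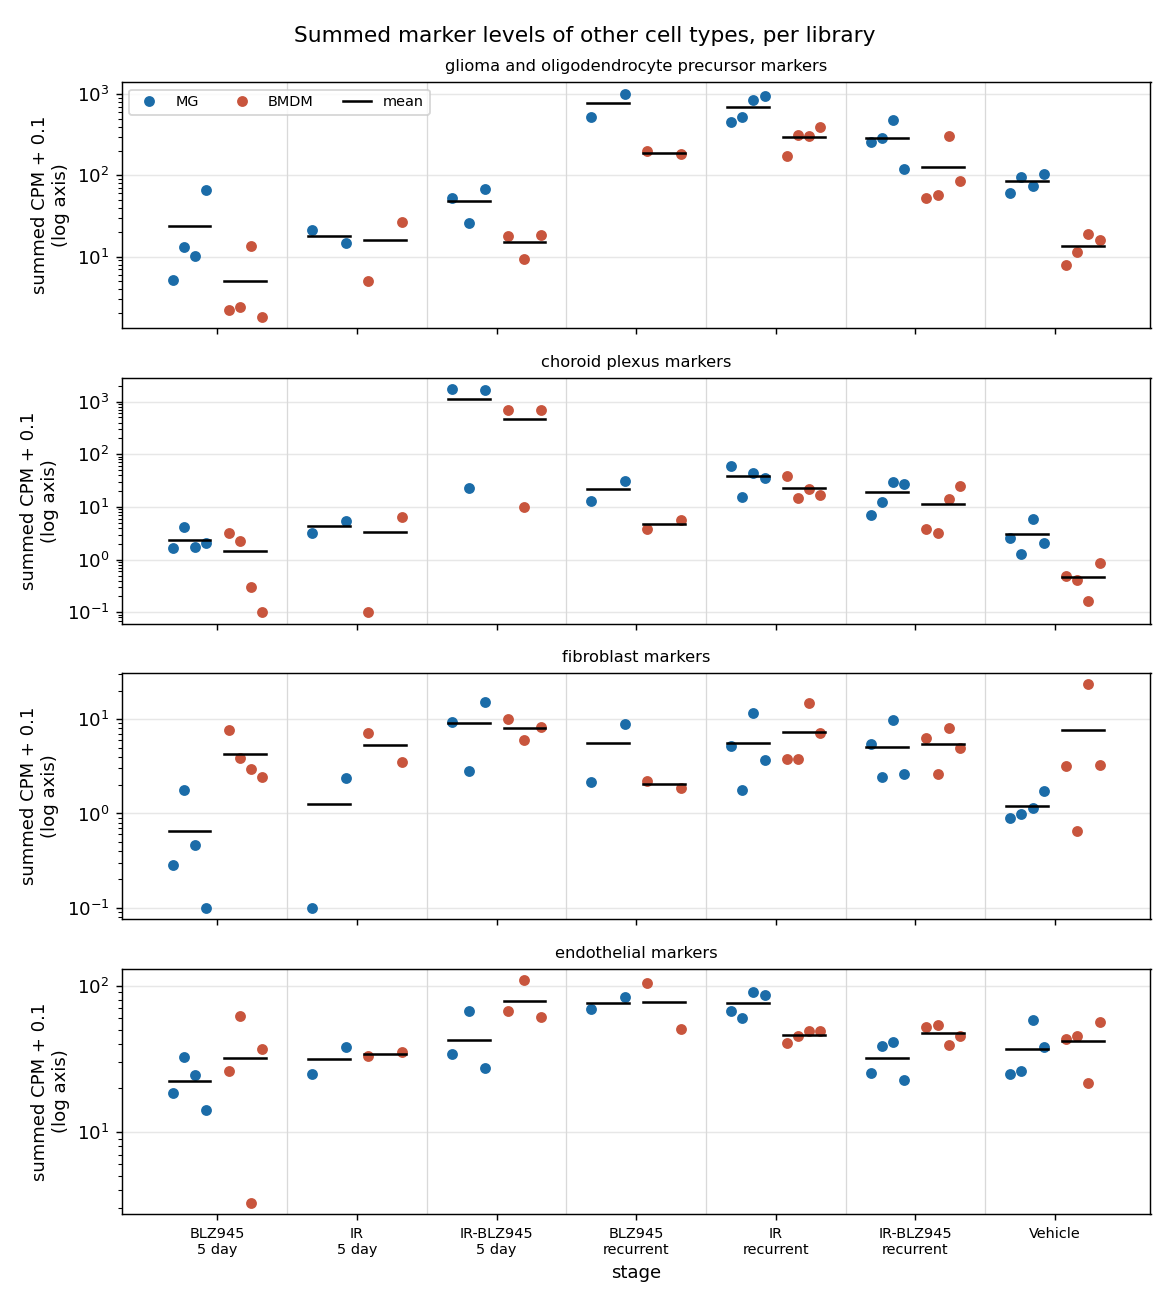
Summed CPM + 0.1 (log axis) of the glioma and oligodendrocyte precursor, choroid plexus, fibroblast and endothelial marker lists in every library by stage, MG in blue left of BMDM in red, with group means as black lines. In MG the glioma list lies at 118 to 1019 CPM in recurrent libraries and at 61.4 to 105 CPM in Vehicle libraries, and the choroid plexus list reaches 1741 CPM at IR-BLZ945_5day.

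A few collagen receptors also changed in recurrent MG. Ddr1, a receptor tyrosine kinase for collagen, rose by 4.97 ± 0.82, 4.24 ± 0.75 and 3.44 ± 0.73 on the log2 scale after BLZ945, IR and IR-BLZ945 (adjusted p 0.00285, 0.00223 and 0.0144). Of 10 receptors tested, 2, 3 and 1 rose and none fell (2.97%, 4.2% and 2.04% of all genes rose), with list medians of 0.19, 0.40 and -0.08 on the log2 scale, the others being Ddr2 after BLZ945 and IR and the integrin chain Itga1 after IR (log2 4.31 ± 1.19, adjusted p = 0.0401). Of 26 modification and assembly genes, Pcolce2, an enhancer of procollagen cleavage, and Serpinh1 rose at IR_Recurrent (log2 4.54 ± 1.26 and 4.15 ± 1.09, adjusted p 0.0417 and 0.0303). At BLZ945_Recurrent Sparc, a collagen-binding matrix protein, fell by 2.10 ± 0.49 (adjusted p = 0.02), and at IR-BLZ945_Recurrent Leprel1, a prolyl 3-hydroxylase, fell by 1.93 ± 0.46 (adjusted p = 0.0242). Of 9 degrading genes only Mmp14, a membrane collagenase, rose, at BLZ945_Recurrent (log2 1.61 ± 0.45, adjusted p = 0.0498).

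In Vehicle tumours some genes of these lists also differed between MG and BMDM, where 3.84% of all genes were called higher in MG and 5.3% lower. Of 28 modification genes 7 were higher and 1 lower in MG, among them Lox, which crosslinks collagen (log2 5.32 ± 1.22, adjusted p = 0.00278), and Sparc (log2 4.33 ± 0.56, adjusted p = 1.15e-06). Of 10 receptors Gpr56, a receptor of type III collagen, and Lair1 were higher (log2 4.50 and 0.86, adjusted p 2.16e-05 and 0.0116) and Itga1 was lower (log2 -4.07, adjusted p = 0.0183). Of 9 degrading genes Ctsl was higher in MG (log2 2.78, adjusted p = 6.97e-06), while Mmp14, Mmp9 and the collagen-endocytic receptor Mrc1 were lower (log2 -3.12, -5.16 and -2.97, adjusted p 2.88e-06, 0.0212 and 0.00237).

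At IR-BLZ945_5day more MG chains were called than at any other stage, but their number depended on single libraries of either group. Of 35 chains 12 rose and 1 fell, where 9.55% of all genes were called higher and 3.89% lower, and the chains' median log2 difference was 3.37 (3.40 with bounds), against -0.02 for all genes. The count was 3 without mouse 65971, 2 without the Vehicle mouse 41, 1 without the Vehicle mouse 65966 (Col9a3) and 3 without the doubted libraries. Col19a1, a fibril-associated chain of brain interneurons, had 4.18, 76.2 and 0 CPM, against 0.395, 0, 0.456 and 1.14 CPM in Vehicle MG (log2 5.91 ± 1.61, adjusted p = 0.0227, and 2.18 with an adjusted p of 0.369 without 65971). Col1a1 had 0.330, 30.6 and 2.06 CPM, against 0.461, 0.0743, 0 and 0.286 CPM (log2 5.79 ± 1.47, adjusted p = 0.0173, and 2.599 with an adjusted p of 0.225 without 65971). In both the library of 65971 was the high one and the groups overlapped.

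Further chains of several classes rose. Col5a2 had 1.87, 24.8 and 5.07 CPM, against 0.132, 0.149, 0.130 and 0.667 CPM in Vehicle MG (log2 5.42 ± 1.33, adjusted p = 0.0155, and 3.78 with an adjusted p of 0.0697 without 65971). Col3a1 had 8.81, 26.9 and 6.96 CPM, against 0.659, 0, 0.586 and 0.667 CPM (log2 5.00 ± 1.25, adjusted p = 0.0169, and 4.12 without 65971). Neither group overlapped Vehicle, and the largest adjusted p of Col3a1 without a mouse was 0.0581. Col8a2, a short-chain network collagen, had 5.07, 2.75 and 2.84 CPM, against 0, 0, 0.326 and 0 CPM (log2 5.33 ± 1.44, adjusted p = 0.022, at most 0.0797 without a mouse). Col9a3 had 9.69, 0 and 10.3 CPM and overlapped Vehicle MG (log2 4.74 ± 1.07, adjusted p = 0.0107, and 5.71 without mouse 41). It was the only chain called in every fit without a mouse. The basement membrane chain Col4a5 had 4.96, 7.34 and 0 CPM, against 0.132, 0.149, 0.0651 and 0 CPM (log2 5.45 ± 1.66, adjusted p = 0.035, at most 0.0955 without a mouse, and log2 4.72 without 65971). Col11a1, Col23a1, Col5a3, Col12a1 and Col6a1 were the further chains that rose, and Col20a1, with no count against 22 in Vehicle MG, was at least 3.23-fold lower. The Col20a1 call was lost in 6 of 7 fits without a mouse, by DESeq2 (adjusted p = 0.054) and without the doubted libraries (0.098).

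The same IR-BLZ945_5day MG libraries carried markers of other brain cells. Of 8 choroid plexus markers 7 rose, with sums of 22.3 to 1741 CPM, against 1.19 to 5.93 CPM in Vehicle MG. Its defining gene Ttr stood at 6.73 to 1009.9 CPM, against 0 to 0.326 CPM. Where 9.55% of all genes were called higher and 3.89% lower, 5 of 8 astrocyte, 4 of 7 neuron and 3 of 7 myelin markers rose. So did 2 of 12 endothelial, 1 of 6 fibroblast, 1 of 8 mural and 2 of 6 blood-derived macrophage markers. The endothelial list's median log2 difference was -0.23, and the fibroblast and mural medians were 3.01 and 1.70. Of 12 glioma and oligodendrocyte precursor markers 1 rose and 1 fell (median -0.35). Of microglia markers 4 of 8 fell, and of border-associated macrophage markers 1 of 9. Of 5 macrophage defining markers 1 rose and 2 fell. The fibroblast markers summed to 2.75 to 14.9 CPM, against 0.790 to 1.62 CPM, with Dpt and Mfap4 at 0. In BMDM of the same mice choroid plexus markers summed to 9.96 to 707 CPM, against 0.0651 to 0.748 CPM in Vehicle BMDM. Their part in the result was not tested. Of the 26 modification genes 2 rose and 4 fell at that stage in MG, 3 of 10 receptors rose and 1 fell, and 2 of 9 degrading genes rose, among them Ctsk (log2 5.11 ± 1.13, adjusted p = 0.00956).

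Col15a1 was called against Vehicle at no stage in either population, with log2 differences of -0.95 to 0.55 in MG and -2.07 to 0.84 in BMDM. Apart from 0 CPM in MG of mouse 65971 and 10.7 CPM in MG of mouse 65696, its MG levels lay between 2.58 and 10.01 CPM, with 6.32, 3.42, 8.14 and 10.01 CPM in Vehicle MG and 3.12, 3.47, 3.90 and 2.70 CPM in Vehicle BMDM. Col3a1, a fibrillar chain of soft tissue, had 3.43, 1.87, 18.4 and 2.11 CPM in IR_Recurrent MG and did not pass there (log2 3.88 ± 1.17, adjusted p = 0.0658).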

How the data were processed

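RNA was sequenced from MG and BMDM sorted from 23 mice, giving 46 libraries in 14 groups made with a Smart-Seq kit, per the labels' protocols. The authors deposited raw counts per gene symbol, and CASAVA 1.8, STAR 2.5.0e, HTSeq, DESeq2 and the mm10 build are named in the submitters' processing notes. The annotation and the use of strand are not given in the sources used here. Of 23329 symbols, 1535 had no count in any library, and 0 columns were left unused. Replicates are separate mice, and no replicate pair agreed within sampling noise (smallest chi-square per degree of freedom 10.7).

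Counts were fitted with edgeR 4.0.16 in R 4.3.3 (TMM scaling, robust quasi-likelihood test, filterByExpr with a minimum count of 10 and total of 15, limma 3.58.1 beneath) over the whole table. One fit held the 23 MG libraries (14534 genes), one the 23 BMDM libraries (14568 genes) and one all 46 (15901 genes), the last for MG against BMDM and for differences of response. The coefficients of variation between replicates were 0.484, 0.651 and 0.589. This gave 25 comparisons, each with p-values adjusted by Benjamini and Hochberg over all genes tested and a threshold of 0.05. CPM in the text are counts over the TMM-scaled library sizes of the fit of 46, and CPM per kb divide these by the union of a gene's exons in GENCODE M21. The fits were checked on simulated counts. Tables and figures used Python 3.11.15, pandas 2.3.3, numpy 2.4.6 and matplotlib 3.10.9. Gene spans and upstream windows are RefSeq's on GRCm38.

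Members were taken by symbol, but the choice of the collagens and of the gene lists was made with earlier results of these data known. Named are the 10 chains with most counts and, per comparison, every called chain up to the 6 largest changes, and from each list up to 4 called genes. A few chains beyond these are named in counts of calls after their values were seen. Per the labels, MG and BMDM of one number come from the same mouse, which is where the pairing comes from. For mouse 65698 the sex-linked genes go against that, yet the block kept its libraries as 1 mouse. Their deviations from group means correlated at 0.00342 to 0.595 (median 0.225), above 0.1 in 18 of 23 mice. Alternatives were the mouse as replicate block, DESeq2's size factors, DESeq2 1.42.0, no low-count filter, the doubted libraries left out, and each mouse left out.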

Additional observations from a re-analysis of the deposited data

Results flagged for a closer look

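Single libraries stood apart from the rest of their group in 19 of 88 cases, each the levels of 1 chain in 1 group of 4 mice. The nominal rate is about 1 in 20, but it need not hold for chains near 0 CPM. No excess over chance can thus be read from this count. In BMDM at BLZ945_5day, mouse 65975 held 13.5 CPM of Col14a1 with 0 in the other 3. Mouse 123 held 0.0849 CPM of Col6a3, which is 1 count, with 0 in the others. Mouse 122 of that group held 13.9 CPM of Col27a1 (others 1.58 to 3.57), 0.629 CPM of Col11a1 (others 0 to 0.0987) and 9.12 CPM of Col3a1 (others 0). In MG at BLZ945_5day, mouse 123 was high for 4 chains, with 1.46 CPM of Col18a1 (others 0 to 0.182), 3.02 CPM of Col4a1 (others 0 to 0.0911), 1.14 CPM of Col4a2 (others 0 to 0.0937) and 1.25 CPM of Col3a1 (others 0 to 0.184). In the same MG group mouse 65975 held 5.06 CPM of Col16a1 (others 0 to 0.208), and mouse 124 was low for Col27a1 at 18.4 CPM (others 21.6 to 22.2).

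At IR_Recurrent mouse 68345 held 25.98 CPM of Col18a1 in BMDM (others 10.6 to 10.99) and 18.4 CPM of Col3a1 in MG (others 1.87 to 3.43). At IR-BLZ945_Recurrent mouse 67947 held 24.8 CPM of Col18a1 in BMDM (others 3.83 to 4.80), and its Col16a1 was high in both populations, at 8.23 CPM in MG (others 4.24 to 4.56) and 9.72 CPM in BMDM (others 0.096 to 1.51). BMDM of mouse 68362 held 3.25 CPM of Col6a3 (others 1.31 to 1.63). In Vehicle MG, mouse 65967 held 3.26 CPM of Col4a1 (others 0.743 to 1.14), and mouse 65966 held 0 CPM of Col3a1 (others 0.586 to 0.667).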

How the results depend on the processing

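Among the alternatives run, no called chain changed sign, but the log2 difference of Col20a1 between MG and BMDM at IR-BLZ945_5day was 0 without mouse 65696, which held all its counts. Of 57 calls of single chains, DESeq2 kept 56, DESeq2's size factors in edgeR 55, no low-count filter 47 and the fits without the doubted libraries 36. The replicate block kept 16 of 21 calls between MG and BMDM, and the fits without 1 mouse kept 165 of 338. Counts of called chains that moved by over 1.5 times were as follows, and the cause was not tested. The shares of all genes given above belong to the main edgeR fits. For the alternatives and the fits without a mouse no such share is given, here or above. Their counts of chains therefore cannot be set against the calls over all genes. DESeq2 called 5 at BLZ945_5day, 4 at IR_5day, 2 at IR-BLZ945_5day, 1 at BLZ945_Recurrent, 6 at IR_Recurrent and 1 at IR-BLZ945_Recurrent in BMDM, 10 at IR-BLZ945_Recurrent in MG, 10 and 7 between MG and BMDM at BLZ945_5day and IR_5day, and 1, 1 and 2 for the difference of response at BLZ945_5day, IR_5day and IR-BLZ945_5day. Without the doubted libraries the counts were 0 at BLZ945_5day, 2 at IR-BLZ945_5day and 4 at IR_Recurrent in BMDM, 3 at IR-BLZ945_5day and 10 at IR-BLZ945_Recurrent in MG, 1 between MG and BMDM at BLZ945_Recurrent, and 1 for the difference of response at IR-BLZ945_5day. Without the low-count filter they were 0 in BMDM at IR-BLZ945_5day and 1 between MG and BMDM at IR_Recurrent. The replicate block gave 1 for the difference of response at BLZ945_5day and moved no other count by over 1.5 times.

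Leaving out 1 mouse gave counts of 0, 0 to 1, 1 to 16, 2 to 4, 3 to 9 and 0 to 4 in MG over the 6 stages in the order used above, and 1 to 3, 0 to 1, 0 to 1, 0, 0 and 0 in BMDM. Between MG and BMDM they were 2 to 3 in Vehicle mice, 5 to 6 at BLZ945_5day, 0 at IR_5day, 2 to 6 at IR-BLZ945_5day, 0 at BLZ945_Recurrent, 0 at IR_Recurrent and 1 at IR-BLZ945_Recurrent, and for the differences of response 0 to 1 at BLZ945_5day and 0 at the others. Where this left a group with 1 library, that library was assumed to vary like the other groups. Depth limits the chains below about 1 CPM, which rest on few reads, and groups of 2 mice carry wide errors.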
